A study of Homo sapiens with 15 samples.

Results

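The 10 genes described here belong to the Hippo-YAP pathway: CCN1, CCN2, ANKRD1 and AXL, which are known targets of the transcriptional co-activators YAP and TAZ, the angiomotins AMOT, AMOTL1 and AMOTL2, the kinase LATS2, the LIM-domain protein AJUBA and the DNA-binding factor TEAD1. They were taken by name from the 58219 genes of the count table, each matched 1 row, and all 10 passed the filter on low counts that left 17599 genes to be tested. The rule uses names and no measured value, but the 10 genes were chosen with earlier results of these data known. Shares of the 10 set beside all genes are thus a description.

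The Hippo pathway is a kinase cascade in which MST kinases activate LATS kinases, and LATS kinases phosphorylate YAP and TAZ so that they are held in the cytoplasm or degraded. When the cascade is quiet, as in spread, sparse or stretched epithelial cells, YAP and TAZ enter the nucleus, bind TEAD factors and switch on genes for matrix-associated proteins and growth. Angiomotins sit at tight junctions and actin filaments and bind YAP directly, and AJUBA-family proteins bind and restrain LATS kinases. Several of these restraining proteins, among them LATS2 and AMOTL2, are themselves transcribed by YAP and TEAD, which closes a feedback loop. RNA levels do not measure the phosphorylation or location of YAP.

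The cells were BEAS-2B, a single immortalized line of human bronchial epithelium, grown on collagen in serum-free Bronchial Epithelial Growth Medium and exposed to PM2.5, fine particles collected in Beijing and suspended in medium. Each of the 5 groups had 3 libraries, 1 from each independent experiment. Control_24h received vehicle, PM_24h_1dose received 1 µg/cm2 and PM_24h_30dose received 30 µg/cm2 of PM2.5, all for 24 h. Control_7d and PM_7d_1dose were given vehicle or 1 µg/cm2 PM2.5 daily, with washing between exposures, and cells were collected on day 7. The labels count 7 daily exposures and the study's methods count 6. Cells of the repeated protocol were plated at a lower density than those of the 24-h protocol. Experiment numbers are used within each protocol, and an equal number in both protocols was not taken as the same experiment.

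The libraries held 21460981 to 34724765 reads assigned to genes (median 29243177), so that 3 counts in a library equal 0.0866 to 0.149 CPM (counts per 1e6 counted reads after TMM scaling), a limit that covers counting error only. Within the 24-h protocol, experiment 2 stood apart. The median absolute log2 difference of all tested genes between its library and the mean of experiments 1 and 3 was 0.394 in Control_24h, 0.558 in PM_24h_1dose and 0.483 in PM_24h_30dose, against 0.182, 0.175 and 0.113 between experiments 1 and 3. Values of the 3 experiments are therefore given separately for the 10 genes, and also without experiment 2 where a call among the 10 changed. Experiment 2 was singled out from these same data, and fits without it leave 2 libraries in each 24-h group. Their p-values describe how far a result depends on it and are not independent evidence. All 7 bronchial epithelial markers examined were expressed, with a summed level of 3649 to 4163 CPM in Control_24h and 2948 to 3515 CPM in Control_7d. The 4 endothelial markers summed to at most 0.425 CPM in any library. The leukocyte marker PTPRC was at 0 in 14 of 15 libraries, and CD14, at 2.30 to 23.4 CPM, was the only leukocyte marker of 4 that was tested.

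Promoter sequence was available from RefSeq for 8 of the 10 genes. The hexamer GGAATG, the core that TEAD factors are known to bind, was searched on both strands of windows running from 250 bases before to 50 bases after a RefSeq start (GRCh38.p14). It was present in 6 of the 8 genes (CCN2, ANKRD1, AMOTL2, LATS2, AJUBA and AXL) and in 6 of their 11 windows, whereas 14.0% of all 35116 such windows hold it. AMOTL2, AJUBA and AXL have more than 1 window, and only the one at a start farther along the gene held it. In LATS2 it began 9 bases after the start. TGANTCA, a loose form of the AP-1 motif that allows any base at N, was present in 1 of the 8 genes, ANKRD1, there as TGATTCA. It was present in 7.71% of all windows, and a form limited to C or G at N was not searched. The CArG box of serum response factor was present in none of the 8 genes and 1.29% of all windows. The 2 motifs searched for capitals, GGAATG and TGANTCA, do not overlap in these windows. The 250 bases before the start of CCN2 (chr6:131951373-131951622, minus strand), ANKRD1 (chr10:90921088-90921337, minus strand) and AMOT (chrX:112840832-112841081, minus strand) are shown because these are a pair of targets and the angiomotin whose levels moved farthest, with motif letters in capitals.
CCN2: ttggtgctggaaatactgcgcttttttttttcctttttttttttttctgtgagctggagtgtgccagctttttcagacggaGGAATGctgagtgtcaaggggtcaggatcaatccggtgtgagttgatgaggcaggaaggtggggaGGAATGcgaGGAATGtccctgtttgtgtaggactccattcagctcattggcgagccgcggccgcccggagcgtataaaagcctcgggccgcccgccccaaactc
ANKRD1: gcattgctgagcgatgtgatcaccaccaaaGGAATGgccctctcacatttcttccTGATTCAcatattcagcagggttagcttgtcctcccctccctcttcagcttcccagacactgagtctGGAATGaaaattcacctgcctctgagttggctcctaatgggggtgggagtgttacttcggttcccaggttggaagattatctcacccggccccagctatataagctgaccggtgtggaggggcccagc
AMOT: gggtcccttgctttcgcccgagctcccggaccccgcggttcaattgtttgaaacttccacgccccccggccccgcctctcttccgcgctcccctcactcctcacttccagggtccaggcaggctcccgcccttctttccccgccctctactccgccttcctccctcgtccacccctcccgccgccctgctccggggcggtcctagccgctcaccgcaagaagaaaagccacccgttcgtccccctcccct
The CCN2 window holds GGAATG 3 times, starting 169, 104 and 95 bases before the start. ANKRD1 holds it 2 times, starting 220 and 128 bases before the start, with TGATTCA between them at 195 bases. AMOT holds neither motif, which says only that these letters are not in this window. Binding was not measured.

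The level of each gene was first compared per kilobase of exon. In Control_24h the order of mean CPM per kb (± SD, n = 3) was AXL (103 ± 13.3), CCN2 (98.0 ± 73.7), CCN1 (97.6 ± 44.9), AJUBA (45.0 ± 2.39), TEAD1 (25.9 ± 6.45), AMOTL2 (22.8 ± 2.13), LATS2 (9.21 ± 0.628), AMOTL1 (9.09 ± 3.36), ANKRD1 (8.28 ± 4.73) and AMOT (3.72 ± 1.37). The first 3, TEAD1 and AMOTL2, and the run from LATS2 to ANKRD1 lay within each other's spread. In Control_7d the order was CCN1 (34.1 ± 5.76), AXL (33.7 ± 1.03), TEAD1 (26.2 ± 1.66), AJUBA (25.9 ± 1.96), AMOTL2 (25.5 ± 0.150), CCN2 (16.0 ± 1.96), AMOTL1 (14.1 ± 0.441), LATS2 (9.02 ± 0.140), AMOT (7.82 ± 0.367) and ANKRD1 (1.22 ± 0.296). CCN1 and AXL, and the group of TEAD1, AJUBA and AMOTL2, differed by less than their spread, and so did CCN2 and AMOTL1. ANKRD1, a nuclear ankyrin-repeat protein, was the lowest of the 10 in Control_7d.

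**Figure D1:**
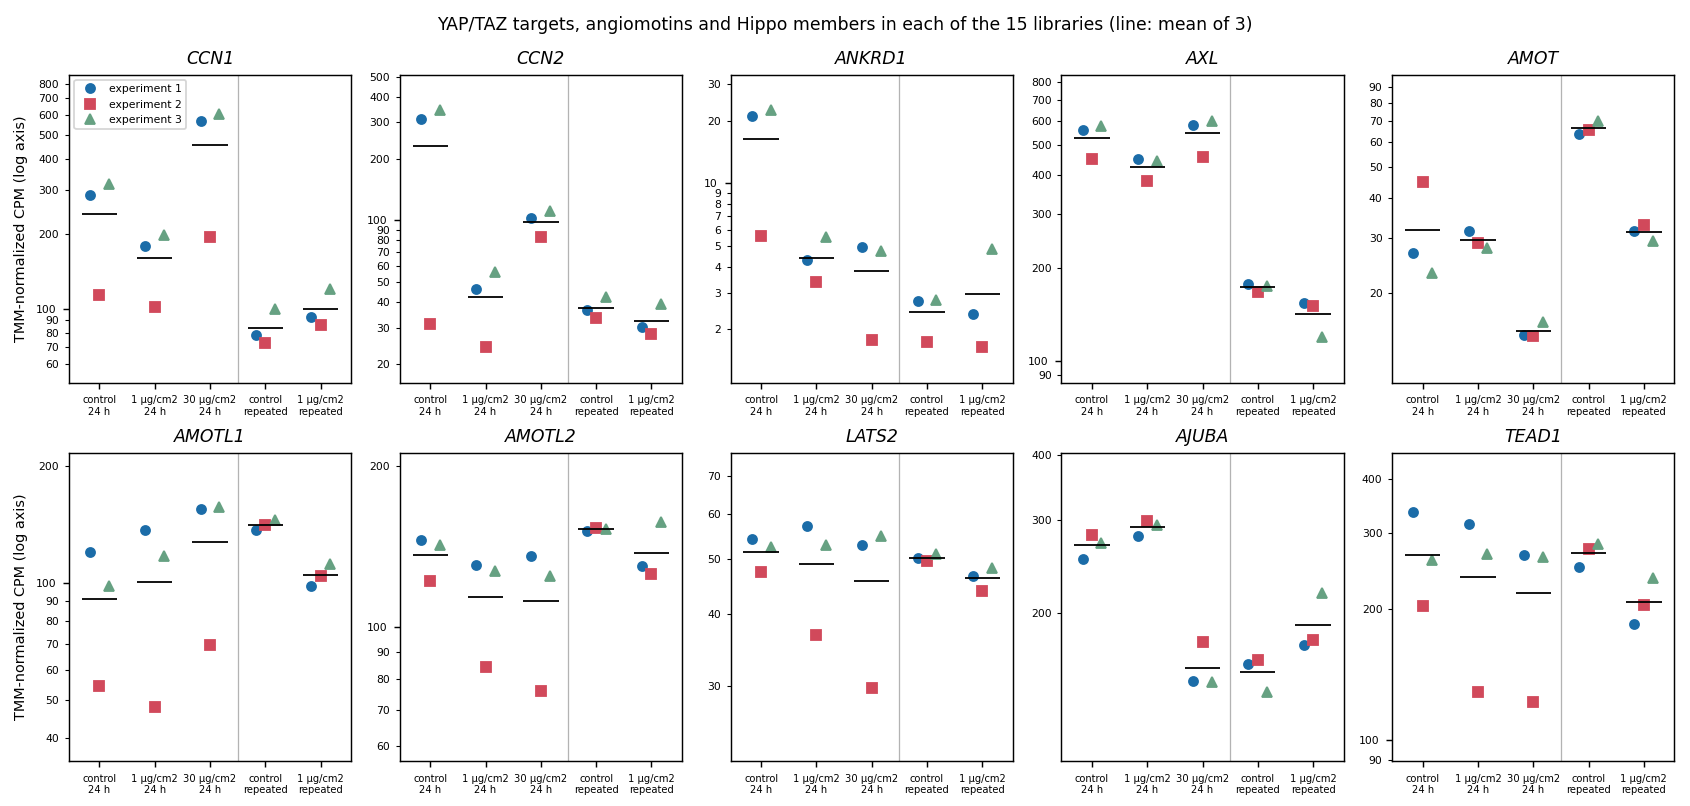
TMM-normalized CPM (log axis) of the 10 genes in each of the 15 libraries, by group, with the 3 experiments as separate symbols and the mean of 3 as a line. At 24 h the squares of experiment 2 lie below the other symbols for CCN1, CCN2 and ANKRD1 (CCN2 in Control_24h at 31.2 CPM against 311 and 346 CPM), whereas in the repeated protocol the 3 experiments lie close together for most genes.

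Genes were called at an adjusted p under 0.05 (edgeR quasi-likelihood test, Benjamini-Hochberg over 17599 genes) and a log2 fold-change of 0.6 or more in size. After 30 µg/cm2 for 24 h, 3 of the 10 genes fell (ANKRD1, AMOT and AJUBA), where 8.07% of all tested genes were called. No gene of the 10 was called higher there, whereas the fit with a replicate block also called CCN1, at 0.90 on the log2 scale (adjusted p = 0.00016). Their median log2 fold-change was -0.29 against 0.03 over all genes tested. After 1 µg/cm2 for 24 h, 0 of the 10 genes were called, as were 0.0625% of all genes, although 3 of the 10 (CCN2, ANKRD1 and AXL) had an unadjusted p under 0.05, as did 534 of all 17599. DESeq2 and edgeR's likelihood ratio test each called 1 of the 10 there, CCN2, and the fit with a replicate block called ANKRD1. Between 30 and 1 µg/cm2, CCN1 was higher and AMOT and AJUBA were lower at the higher dose, 3 of 10 genes, with 7.84% of all genes called. After daily 1 µg/cm2, AMOT fell and was the only one of the 10 that was called, where 0.227% of all genes were. These 24-h comparisons share libraries, the 2 doses the same controls and the dose contrast both treated groups, so their values are given side by side and are not independent of each other. With 3 libraries per group from separate experiments, p-values measure a spread between experiments in 1 cell line, shared over all 5 groups. For daily exposure this spread thus includes that of 24-h experiment 2, and not only that of the repeated protocol. A fit of the compared libraries alone called 1029 genes after daily exposure, against 40 in the fit of all libraries.

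The difference between the response to daily and to single exposure at 1 µg/cm2 was called for 0 of the 10 genes and for 0% of all genes by the edgeR quasi-likelihood test, with 1245 genes at an unadjusted p under 0.05. DESeq2 called 66 genes, the likelihood ratio test 13 and the fit with a replicate block 181. Of the 10, the unadjusted p was under 0.05 for CCN2, ANKRD1 and AMOT. Between the controls, CCN1, CCN2, ANKRD1, AXL and AJUBA were lower and AMOT was higher in Control_7d than in Control_24h, 6 of 10 genes, with 21.9% of all genes called. Days in culture, plating density, medium changes and experiment differ together between these controls and cannot be told apart. The same differences lie between the daily and the single response, and there too the number of exposures cannot be told apart from them. Compared groups did not overlap for 3 of the 10 genes at 30 µg/cm2 (22.8% of all tested genes) and 1 at 1 µg/cm2 for 24 h (4.44%). Between doses this held for 4 (21.6%), after daily exposure for 6 (42.9%) and between controls for 7 (52.3%).

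**Figure D2:**
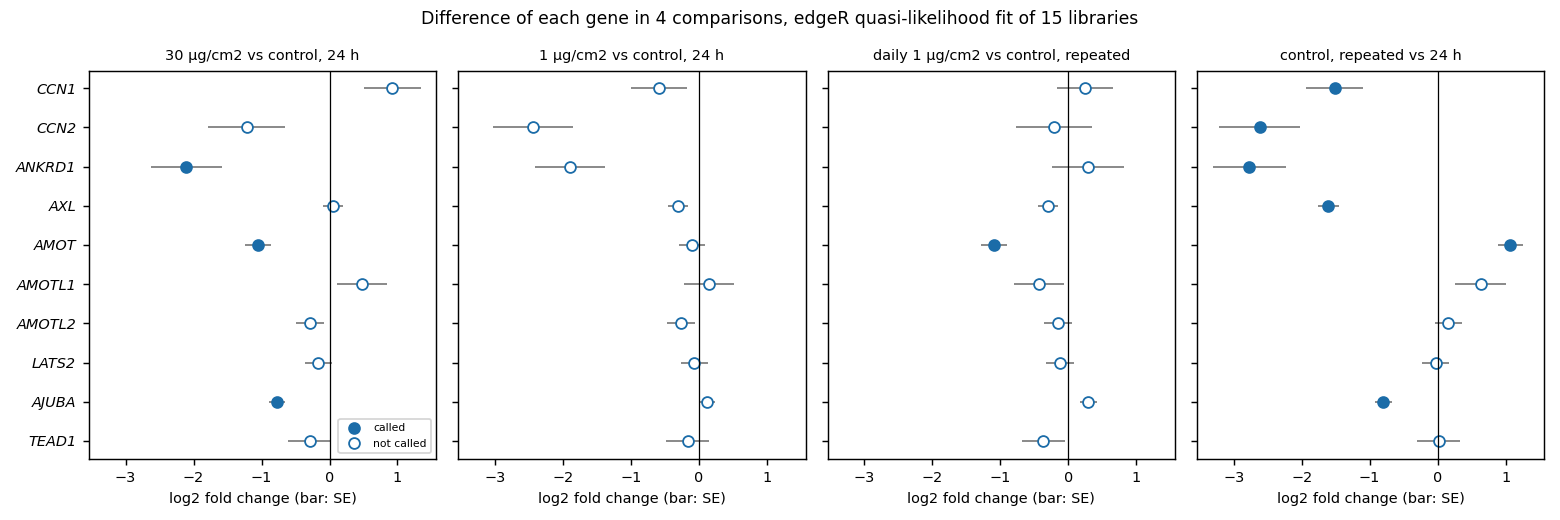
Log2 fold-change of each gene (x axis, with its SE as a bar) in 4 comparisons, filled where called. AMOT is filled on the negative side for 30 µg/cm2 at 24 h and for daily 1 µg/cm2, and on the positive side between the controls, while the open symbols of CCN2 and ANKRD1 at 1 µg/cm2 lie at -2.44 and -1.90 with wide bars.

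CCN1 (CYR61; ENSG00000142871, chr1:85580761-85583962, plus strand) encodes a matrix-associated signaling protein and is among the most used readouts of YAP activity. Its level in experiments 1, 2 and 3 was 288, 113 and 318 CPM in Control_24h, 178, 102 and 198 CPM in PM_24h_1dose and 566, 194 and 604 CPM in PM_24h_30dose. Within each experiment the order was the same, lowest at 1 µg/cm2, intermediate in the control and highest at 30 µg/cm2, whereas experiment 2 was below the other experiments in every group at 24 h. The log2 ratio to the control of the same experiment was -0.69, -0.16 and -0.68 at 1 µg/cm2 and 0.98, 0.77 and 0.93 at 30 µg/cm2. The contrast of 30 against 1 µg/cm2 gave a log2 fold-change of 1.51 over the 3 experiments (SE 0.421, adjusted p = 0.036), higher in 8 of 9 pairs of libraries. This call was lost when PM_24h_1dose replicates 1, 2 or 3 or PM_24h_30dose replicates 1 or 3 were left out (log2 fold-changes of 1.25 to 1.70, adjusted p = 0.0603 to 0.153), and in a fit of the compared libraries alone (adjusted p = 0.193). The log2 fold-change against control at 30 µg/cm2 was 0.92 (SE 0.415, adjusted p = 0.193), and called with a replicate block (0.90, adjusted p = 0.00016) or without experiment 2 (0.94, adjusted p = 8.32e-05). Against control, 1 µg/cm2 gave -0.59 (SE 0.414, adjusted p = 1), and without experiment 2 it was -0.68 (adjusted p = 0.0106).

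In the repeated protocol, CCN1 was at 78.4, 73.0 and 99.8 CPM in Control_7d and at 92.5, 86.4 and 119.7 CPM in PM_7d_1dose. The treated library was above its control in each of the 3 experiments, by 0.24, 0.24 and 0.26 on the log2 scale, but the groups overlapped (log2 fold-change 0.25, SE 0.413, adjusted p = 0.861). The ratio to control was thus negative in all 3 experiments after single exposure to this dose and positive in all 3 after daily exposure, and the difference of the responses was 0.84 (SE 0.585, adjusted p = 0.842). Without 24-h experiment 2 that difference was 0.93 (adjusted p = 0.00315). Every Control_7d library was below every Control_24h library, at -1.52 on the log2 scale (SE 0.422, adjusted p = 0.0156). This call ended without Control_24h replicate 3 (-1.28, adjusted p = 0.0652), Control_7d replicate 1 (-1.47, adjusted p = 0.057) or Control_7d replicate 2 (-1.43, adjusted p = 0.0643).

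CCN2 (CTGF; ENSG00000118523, chr6:131948176-131951373, minus strand) encodes a related matrix protein that is known to rise in fibrosis. It was at 311, 31.2 and 346 CPM in Control_24h, at 46.3, 24.0 and 56.2 CPM in PM_24h_1dose and at 102, 82.6 and 110.5 CPM in PM_24h_30dose. The control library of experiment 2 was 3.39 on the log2 scale away from the mean of the other controls, a distance reached by 0.108% of all tested genes. The log2 ratio of 30 µg/cm2 to control was -1.60 and -1.64 in experiments 1 and 3, and 1.40 in experiment 2. The log2 fold-change over 3 experiments was -1.22 (SE 0.567, adjusted p = 0.21), and without experiment 2 it was -1.64 (adjusted p = 1.56e-07). Leaving out only the control library of experiment 2 gave -1.74 (adjusted p = 0.00163). At 1 µg/cm2 the ratio to control was negative in all 3 experiments, at -2.75, -0.38 and -2.62, and -2.44 over the 3 (SE 0.590, adjusted p = 0.458). DESeq2 gave an adjusted p of 0.00669 and the likelihood ratio test 0.0197 for the same contrast. Without experiment 2 it was -2.67 (adjusted p = 1.7e-08), and without its control library alone -2.94 (adjusted p = 0.000615). Both fits leave out a library that stood apart in these same data.

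Every PM_24h_30dose library exceeded every PM_24h_1dose library in CCN2 (log2 fold-change 1.22, SE 0.569, adjusted p = 0.205). With a replicate block the value was 1.38 (adjusted p = 0.0242), and without experiment 2 it was 1.03 (adjusted p = 2.93e-05). CCN2 was thus lowest at the lower dose, as was CCN1, and in experiments 1 and 3 the level at 30 µg/cm2 stayed below control for CCN2 and lay above control for CCN1. Under daily exposure CCN2 stood at 36.6, 33.3 and 42.4 CPM in Control_7d and 30.2, 27.9 and 39.0 CPM in PM_7d_1dose, overlapping groups near the level of the 24-h control of experiment 2. Daily exposure gave a log2 fold-change of -0.21 over the 3 experiments (SE 0.564, adjusted p = 0.92). The response to daily exposure was 2.23 above that to single exposure (SE 0.804, adjusted p = 0.585), 2.46 without experiment 2 (adjusted p = 1.98e-06) and 2.74 without its control library (adjusted p = 0.0129). Between controls the difference was -2.62 on the log2 scale (SE 0.594, adjusted p = 0.00506), with 3 of 9 pairs in the opposite direction, all of them with the control of experiment 2. A gene on the opposite strand shares 195 exon bases with CCN2 but held 9 counts in all libraries, against 38505 of CCN2.

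ANKRD1 (CARP; ENSG00000148677, chr10:90912096-90921276, minus strand), best known from stressed muscle, is a YAP target in epithelial cells. It was at 21.1, 5.60 and 22.5 CPM in Control_24h, 4.28, 3.37 and 5.51 CPM in PM_24h_1dose and 4.96, 1.77 and 4.74 CPM in PM_24h_30dose. All treated libraries of the 24-h protocol were below all controls, and the treated groups overlapped each other. The lowest of these values, in PM_24h_30dose of experiment 2, rested on 51 counts. The fall at 30 µg/cm2 was called, at -2.11 on the log2 scale (SE 0.524, adjusted p = 0.0202), and held within each experiment at -2.07, -1.63 and -2.23. It was no longer called without Control_24h replicate 1 (-1.89, adjusted p = 0.0634), Control_24h replicate 3 (-1.81, adjusted p = 0.0739) or PM_24h_30dose replicate 3 (-2.28, adjusted p = 0.0572), or in a fit of the compared libraries alone (-2.10, adjusted p = 0.123). For 1 µg/cm2 it was -1.90 (SE 0.519, adjusted p = 0.819), -1.77 with a replicate block (adjusted p = 0.00874) and -2.14 without experiment 2 (adjusted p = 0.000487). The difference between doses was -0.21, with a 95% interval of -1.25 to 0.83 (adjusted p = 0.857).

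In the repeated protocol ANKRD1 was at 2.74, 1.74 and 2.76 CPM in Control_7d and at 2.37, 1.65 and 4.87 CPM in PM_7d_1dose, and the groups overlapped. Over the 3 experiments the difference was 0.30 on the log2 scale (SE 0.529, adjusted p = 0.872). The response to daily exposure was 2.19 above that to single exposure (SE 0.737, adjusted p = 0.547), 1.99 with a replicate block (adjusted p = 0.0475) and 2.44 without experiment 2 (adjusted p = 0.00121). Control_7d lay below Control_24h in all 9 pairs (-2.77, SE 0.540, adjusted p = 0.00194). These 2 groups did not overlap for 52.3% of all tested genes.

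AXL (ENSG00000167601, chr19:41219203-41261766, plus strand), a receptor tyrosine kinase for the ligand GAS6, differed less from control at 24 h than CCN1, CCN2 and ANKRD1 did. It was at 559, 451 and 578 CPM in Control_24h, 452, 383 and 444 CPM in PM_24h_1dose and 581, 460.0 and 602 CPM in PM_24h_30dose. Controls and 30 µg/cm2 overlapped, with a log2 fold-change of 0.05 and a 95% interval of -0.24 to 0.34 (adjusted p = 0.885). At 1 µg/cm2 it was lower than control in all 3 experiments, by -0.31, -0.24 and -0.38 (log2 fold-change -0.31, SE 0.144, adjusted p = 1), and below 30 µg/cm2 in all 9 pairs (30 against 1 µg/cm2: 0.36, SE 0.144, adjusted p = 0.136). In the repeated protocol AXL was at 178, 168 and 175 CPM in Control_7d and 155, 151 and 120.1 CPM in PM_7d_1dose, groups that did not overlap (-0.29, SE 0.144, adjusted p = 0.451), as was the case for 42.9% of all tested genes. Over the 16 alternatives this fall was -0.36 to -0.19 (adjusted p = 0.0184 to 0.817), and it was never called. Control_7d was below Control_24h in all 9 pairs (log2 fold-change -1.61, SE 0.148, adjusted p = 1.07e-05).

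**Figure D3:**
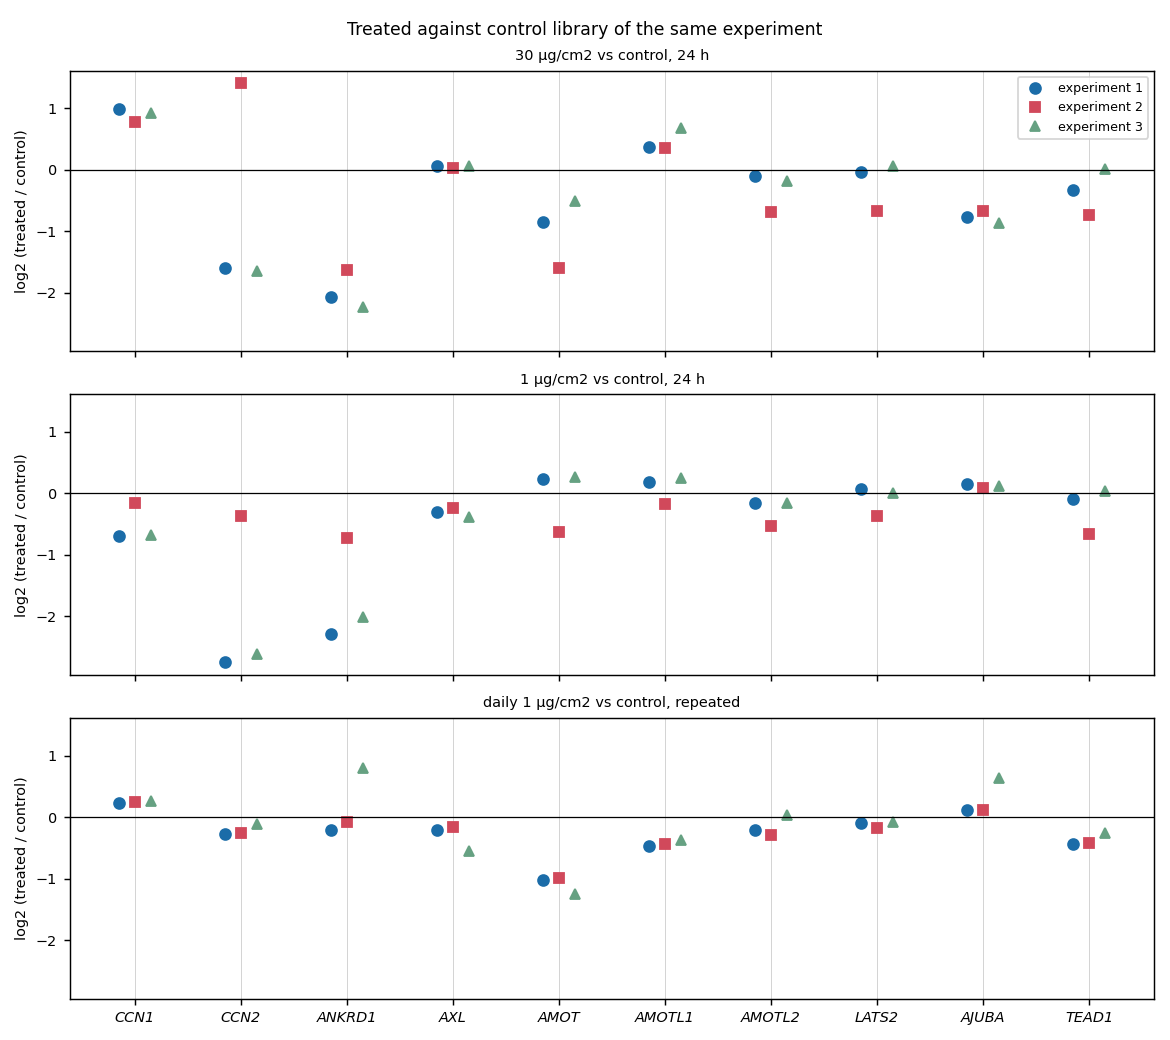
Log2 ratio of the treated to the control library of the same experiment (y axis) for each gene, with experiments 1, 2 and 3 as separate symbols, at 30 µg/cm2 and 1 µg/cm2 for 24 h and after daily 1 µg/cm2. At 30 µg/cm2 the 3 symbols lie close together for AJUBA (-0.77, -0.68 and -0.88) and AXL, and those of CCN2 lie on both sides of 0 (-1.60, 1.40 and -1.64).

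The angiomotins did not move as a group. AMOT (ENSG00000126016, chrX:112774503-112840815, minus strand), the founding member of the family and a scaffold that binds YAP through PPxY motifs, was at 26.8, 45.0 and 23.2 CPM in Control_24h, 31.6, 28.9 and 27.9 CPM in PM_24h_1dose and 14.8, 14.7 and 16.2 CPM in PM_24h_30dose. The group at 30 µg/cm2 was below all other libraries of the study, while controls and 1 µg/cm2 overlapped. The log2 fold-change was -1.05 at 30 µg/cm2 against control (SE 0.191, adjusted p = 0.00316) and -0.95 against 1 µg/cm2 (SE 0.190, adjusted p = 0.00662). Against control it was -0.85, -1.61 and -0.52 within the 3 experiments and -0.71 without experiment 2 (adjusted p = 6.1e-05), and in a fit of the compared libraries alone it was -1.06 (adjusted p = 0.0958). The value at 1 µg/cm2 was -0.10 (SE 0.187, adjusted p = 1), with 0.24, -0.63 and 0.26 within experiments.

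Daily exposure lowered AMOT from 63.9, 65.5 and 69.9 CPM in Control_7d to 31.4, 33.0 and 29.3 CPM in PM_7d_1dose, with no overlap and a fold of 0.470. Over the 3 experiments this was -1.09 on the log2 scale (SE 0.188, adjusted p = 0.0384), and the ratios within experiments were -1.02, -0.99 and -1.25. In the fit of all libraries the call ended when any 1 of the 6 libraries of the protocol was left out, namely Control_7d replicates 1, 2 or 3 or PM_7d_1dose replicates 1, 2 or 3 (log2 fold-changes of -1.13 to -1.05, adjusted p = 0.151 to 0.246). It also ended with upper-quartile scaling (-1.06, adjusted p = 0.0534). It held in the other 9 of 16 alternatives, the replicate block included. The response to daily exposure differed from that to single exposure by -0.99 (SE 0.265, adjusted p = 0.409), by -1.34 without 24-h experiment 2 (adjusted p = 1.45e-05) and by -1.33 without its control library alone (adjusted p = 0.00915). Untreated, AMOT was higher in Control_7d than in Control_24h in all 9 pairs (1.07, SE 0.188, adjusted p = 0.000991). The level after daily exposure was thus inside the range of Control_24h.

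AMOTL1 (ENSG00000166025, chr11:94706431-94876753, plus strand), a junctional paralog, was at 121, 54.3 and 98.6 CPM in Control_24h, 137, 48.2 and 117 CPM in PM_24h_1dose and 156, 69.3 and 157 CPM in PM_24h_30dose. Experiment 2 was the lowest library in each of these groups, and within every experiment 30 µg/cm2 gave the highest value (log2 ratios to control of 0.37, 0.35 and 0.67, log2 fold-change 0.48, SE 0.370, adjusted p = 0.483). In the repeated protocol it was at 137, 142 and 146 CPM in Control_7d and 98.4, 104 and 112 CPM in PM_7d_1dose, without overlap (-0.43, SE 0.369, adjusted p = 0.695). Over the 16 alternatives this fall was -0.48 to -0.39 (adjusted p = 0.00133 to 0.9). It stayed under the threshold of 0.6 in size and was never called. The difference of responses, -0.58 (SE 0.522, adjusted p = 0.89), was -0.65 without experiment 2 (adjusted p = 0.00247). AMOTL2 (ENSG00000114019, chr3:134355874-134375479, minus strand), the family member that is also a YAP target, ranged from 75.9 to 157 CPM over the 15 libraries. Its log2 fold-changes were -0.28 at 30 µg/cm2 (adjusted p = 0.449), -0.26 at 1 µg/cm2 (adjusted p = 1) and -0.15 after daily exposure (adjusted p = 0.829), and none was called in any alternative. The 3 Control_7d libraries lay between 151 and 153 CPM.

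LATS2 (ENSG00000150457, chr13:20973032-21061547, minus strand), the kinase that phosphorylates YAP, was at 54.2, 47.5 and 52.4 CPM in Control_24h, 57.2, 36.8 and 52.9 CPM in PM_24h_1dose and 53.0, 29.7 and 54.9 CPM in PM_24h_30dose. In experiments 1 and 3 the treated libraries were within 0.08 log2 of their control, and in experiment 2 they were lower by 0.37 and 0.67. The log2 fold-change was -0.16 at 30 µg/cm2 (95% interval -0.57 to 0.24, adjusted p = 0.691) and -0.07 at 1 µg/cm2 (-0.47 to 0.34, adjusted p = 1). After daily exposure it was -0.12 (-0.52 to 0.28, adjusted p = 0.863), from 50.2, 49.6 and 51.1 CPM to 46.7, 43.9 and 48.2 CPM.

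AJUBA (ENSG00000129474, chr14:22971174-22982642, minus strand), which binds LATS kinases at tensed junctions, had the smallest range of within-experiment ratios among the 3 genes called at 30 µg/cm2 (0.197 on the log2 scale, against 0.602 for ANKRD1 and 1.09 for AMOT). It was at 254, 282 and 272 CPM in Control_24h, 281, 299 and 294 CPM in PM_24h_1dose and 148, 176 and 148 CPM in PM_24h_30dose. The group at 30 µg/cm2 was below the other groups of the protocol without overlap, by -0.77 on the log2 scale against control (SE 0.120, adjusted p = 0.00103) and -0.89 against 1 µg/cm2 (SE 0.120, adjusted p = 0.000563). The fall against control was called in all 16 alternatives, and that against 1 µg/cm2 in 15 of 16, the exception being a fit of the compared libraries alone (-0.92, adjusted p = 0.0532). At 1 µg/cm2 AJUBA was 0.11 above control (95% interval -0.12 to 0.35, adjusted p = 1). In the repeated protocol it was at 159.9, 163 and 141 CPM in Control_7d and at 174, 178 and 219 CPM in PM_7d_1dose, higher in 9 of 9 pairs (log2 fold-change 0.30, SE 0.119, adjusted p = 0.336). Over the 16 alternatives this rise was 0.18 to 0.36 (adjusted p = 0.0174 to 0.817), and it was never called. The Control_7d level was 0.80 below Control_24h on the log2 scale (log2 fold-change -0.80, SE 0.120, adjusted p = 0.000334).

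TEAD1 (ENSG00000187079, chr11:12674591-12944483, plus strand), which tethers YAP and TAZ to DNA, was at 335, 203 and 260.1 CPM in Control_24h, 315, 129 and 268 CPM in PM_24h_1dose and 267, 122 and 263 CPM in PM_24h_30dose. Groups overlapped, and experiment 2 was lowest in each. The log2 fold-change was -0.29 at 30 µg/cm2 (SE 0.318, adjusted p = 0.645) and -0.17 at 1 µg/cm2 (SE 0.318, adjusted p = 1). After daily exposure TEAD1 went from 249.8, 275 and 282 CPM to 185, 204 and 236 CPM, below control in all 9 pairs (-0.37, SE 0.318, adjusted p = 0.697). Over the 16 alternatives this fall was -0.47 to -0.29 (adjusted p = 0.013 to 0.907), and it was never called.

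YAP1 and WWTR1, which encode YAP and TAZ, were not called in any comparison. YAP1 was at 207, 148 and 189 CPM in Control_24h, 189, 131 and 192 CPM in PM_24h_30dose and 201, 208 and 220 CPM in PM_7d_1dose, with log2 fold-changes of -0.09 at 30 µg/cm2, -0.06 at 1 µg/cm2 and -0.08 after daily exposure. WWTR1 had -0.20, -0.17 and -0.20 in the same order (SE 0.114 in each). Of the 8 tested genes among 9 coding for YAP, TAZ, TEAD2 to TEAD4 and their cofactors, the cofactor VGLL3 fell at 30 µg/cm2 (-0.97, SE 0.254, adjusted p = 0.0268) and VGLL4 was higher in Control_7d than in Control_24h (1.01, SE 0.274, adjusted p = 0.0136, a gene that overlaps ATG7). VGLL3 went from 53.5, 56.9 and 44.3 CPM in Control_24h to 33.3, 15.6 and 30.4 CPM in PM_24h_30dose, and was not called without Control_24h replicates 1 or 2 or PM_24h_30dose replicate 3 (adjusted p = 0.0566 to 0.077).

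Of 17 other genes of the cascade and its upstream regulators, all tested, WWC1 (KIBRA), a scaffold that activates LATS kinases, fell at 30 µg/cm2 (-0.70, SE 0.154, adjusted p = 0.0105) and the other 16 were not called. None of the 17 was called at 1 µg/cm2 in either protocol or between doses. Between controls, STK3, WWC3 and TAOK3 were higher and NF2 was lower in Control_7d (0.82, 0.89, 1.06 and -0.77). Their median log2 fold-change was 0.20 at 30 µg/cm2, beside 0.03 over all genes tested.

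Other reported YAP and TAZ targets moved in both directions. Of 16 listed, 15 were tested, and at 30 µg/cm2 GADD45A rose (1.39, SE 0.214, adjusted p = 0.000983) while CCDC80 (-2.32, SE 0.269, adjusted p = 0.000144), FJX1 (-1.27, SE 0.281, adjusted p = 0.0105) and RBMS3 (-1.19, SE 0.200, adjusted p = 0.00194) fell. GADD45A, a growth-arrest gene that p53 also drives, went from 56.1, 45.7 and 60.2 CPM to 159.8, 91.1 and 174 CPM. CCDC80, a secreted matrix protein, went from 107.9, 89.3 and 101.8 CPM to 12.9, 32.4 and 14.7 CPM. FJX1 had ratios to control of -1.92, -0.08 and -1.50 within the 3 experiments, and the fold-change was -1.73 without experiment 2 (adjusted p = 1.65e-07) and -1.18 without PM_24h_30dose replicate 1, where it was not called (adjusted p = 0.0531). After 1 µg/cm2 for 24 h, none of the 15 was called. Between doses, F3, IGFBP3 and GADD45A were higher at 30 µg/cm2 (1.46, 0.80 and 1.19) and CCDC80 and RBMS3 lower (-2.12 and -0.92). IGFBP3 was 1.37, -0.14 and 1.13 within the 3 experiments and 1.22 without experiment 2 (adjusted p = 3.87e-06), and it was not called without PM_24h_1dose replicates 1 or 3 or PM_24h_30dose replicates 1 or 3 (adjusted p = 0.127 to 0.187). The call of F3 ended without PM_24h_1dose replicates 1, 2 or 3 or PM_24h_30dose replicates 1 or 3 (adjusted p = 0.0605 to 0.174), and that of RBMS3 without PM_24h_30dose replicate 3 (adjusted p = 0.0588). After daily exposure NUAK2, a kinase of the AMPK family, fell from 16.6, 16.5 and 18.7 CPM to 9.24, 9.79 and 7.77 CPM (-0.95, SE 0.126, adjusted p = 0.00975) and the other 14 were not called. The call of NUAK2 ended without Control_7d replicates 1 or 3 or PM_7d_1dose replicate 3 (adjusted p = 0.0582 to 0.0801). In Control_7d against Control_24h, 6 were lower, among them CCDC80 (-2.53), IGFBP3 (-2.35), FJX1 (-1.86) and NT5E (-1.83), and PTPN14 was higher (0.83), a call that ended without any 1 of Control_24h replicates 2 and 3 and Control_7d replicates 1, 2 and 3 (adjusted p = 0.0553 to 0.11).

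**Figure D4:**
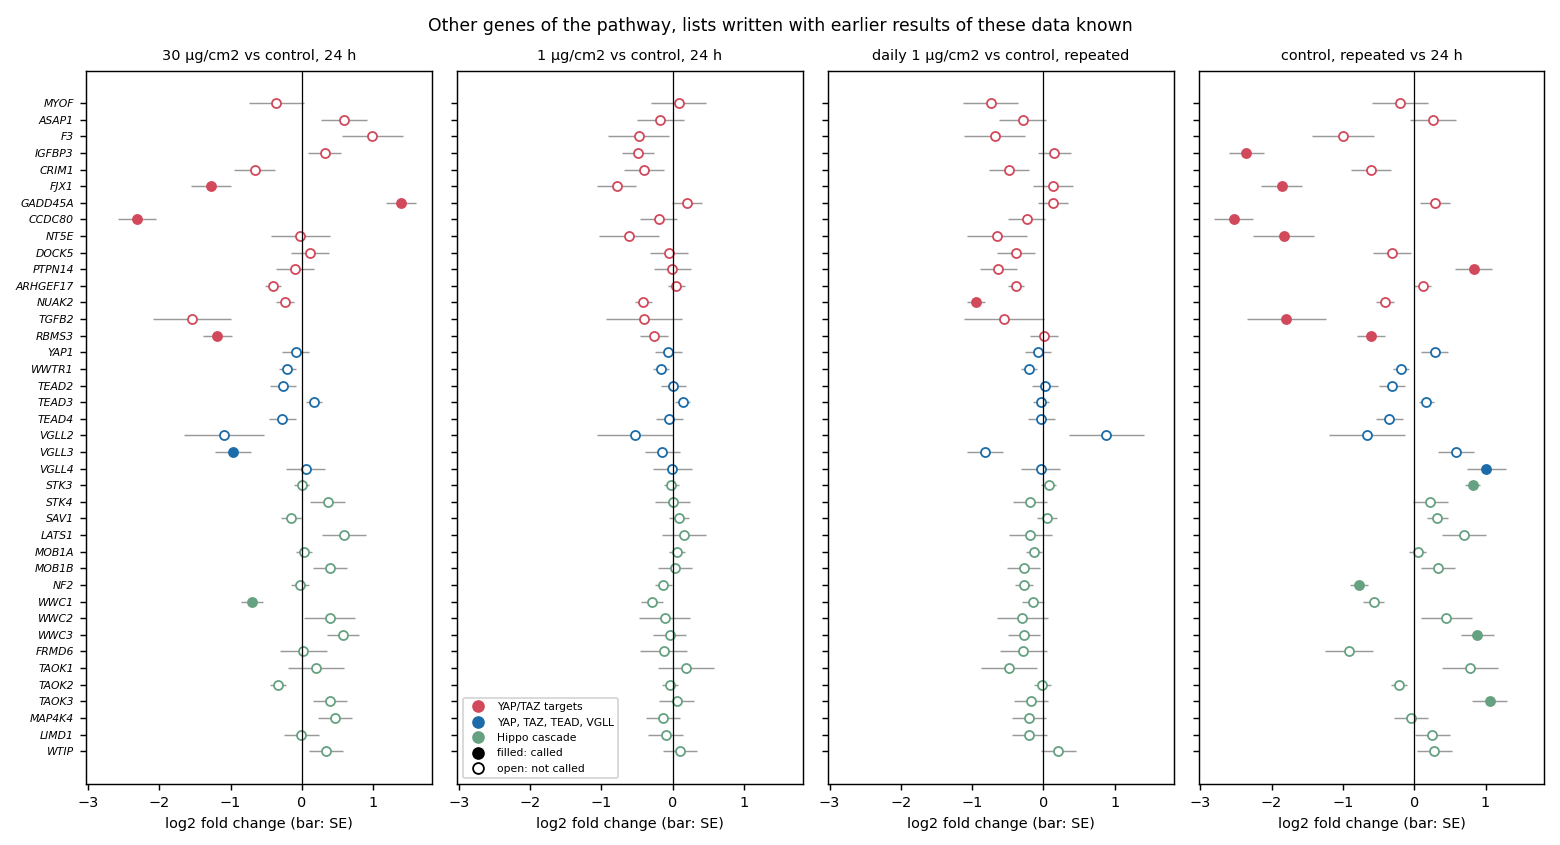
Log2 fold-change (x axis, with its SE as a bar) of the other tested YAP and TAZ targets, YAP, TAZ, TEAD and VGLL genes and Hippo cascade genes in 4 comparisons, filled where called. At 30 µg/cm2 the filled symbols are GADD45A on the right and CCDC80, FJX1, RBMS3, VGLL3 and WWC1 on the left, and at 1 µg/cm2 for 24 h no symbol is filled.

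Of the 4 other CCN genes, 3 were tested. CCN5 (WISP2) was at 1.69, 7.68 and 1.10 CPM in Control_24h, 5.78, 14.2 and 5.55 CPM in PM_24h_1dose and 0.263, 1.28 and 0.239 CPM in PM_24h_30dose. It was lower at 30 than at 1 µg/cm2 (-3.79, SE 0.773, adjusted p = 0.00736), opposite in direction to CCN1. The PM_24h_30dose values rest on 8, 37 and 5 counts, near the floor of 3 counts. Experiment 2 was the highest library in each group.

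Of the 7 epithelial markers, 5 fell at 30 µg/cm2 (KRT5, KRT7, KRT8, KRT19 and CDH1), and the summed level of the 7 was 1559 to 2622 CPM against 3649 to 4163 CPM in Control_24h. KRT5 went from 714, 755 and 774 CPM to 110.4, 173 and 123 CPM (-2.46, SE 0.183, adjusted p = 7.57e-06). KRT7 had ratios to control of -1.28, 0.20 and -1.36 within the 3 experiments, and -1.34 without experiment 2 (adjusted p = 2.95e-08). The calls of KRT7, KRT8, KRT19 and CDH1 each ended without PM_24h_30dose replicate 1 or 3 (adjusted p = 0.0582 to 0.185). They also ended without Control_24h replicates 1 or 3 for KRT7, 2 or 3 for KRT8, 2 for KRT19, and any 1 of the 3 or PM_24h_30dose replicate 2 for CDH1 (adjusted p = 0.0696 to 0.16). CDH1 was also not called without experiment 2 (-0.57, adjusted p = 0.000878). After daily exposure KRT5 fell (-0.93, SE 0.175, adjusted p = 0.0477), a call that ended when any 1 of the 6 libraries of the protocol was left out (adjusted p = 0.125 to 0.31). The other 6 markers were not called. KRT7, KRT8, KRT18, KRT19 and CDH1 were below control within all 3 experiments, KRT19 by -0.82, -0.80 and -1.43. EPCAM alone was positive, at 0.11 (0.19, 0.24 and -0.12 within experiments). The sum was 1934 to 2208 CPM against 2948 to 3515 CPM. After 1 µg/cm2 for 24 h, none of the 7 was called. Of 4 fibroblast markers, PDGFRB fell at 30 µg/cm2 (-1.60, SE 0.304, adjusted p = 0.00429) and 3 were not called, COL1A1 at -0.36, COL3A1 at 0.49 and DCN at 0.10. COL3A1 was positive within all 3 experiments (0.24, 0.78 and 0.33) and DCN in 2 of 3 (-0.20, 0.37 and 0.06). The fibroblast sum was 41.9 to 78.1 CPM against 68.6 to 109.8 CPM in Control_24h. In these bulk libraries fewer cells of a kind and less RNA per cell cannot be told apart, and the part of these marker changes in the values of AMOT, AJUBA and ANKRD1 was not tested.

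Over the 15 libraries, the genes whose log2 CPM was most like that of each gene were found as a description, since all points share the experiments and the protocol. For CCN1 they were HRH1 (Pearson r = 0.986), DLC1 (0.976) and ETS1 (0.971), and for CCN2 they were DUSP4 (0.983), SPRY2 (0.947) and LINC02910 (0.939). AMOT was most like PREX1 (0.971), CYBRD1 (0.967) and GLUL (0.965), and AXL most like SRGN (0.983), DLGAP4 (0.981) and NF2 (0.979). ANKRD1 had no gene above 0.902 (IRS1). AMOTL1 was nearest to RNF169 (0.994), AMOTL2 to RHOBTB3 (0.954) and AJUBA to DEPDC1B (0.951). LATS2 and TEAD1 shared BCOR as the nearest gene (0.959 and 0.976), and TEAD1 was the second nearest of LATS2 (0.935).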

How the data were processed

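RNA from 15 libraries of BEAS-2B cells in 5 groups was analysed. Per the labels and the study's methods, the authors used STAR to align single-end reads (50 bases) and featureCounts to count them. They deposited raw counts per gene beside each gene's exon length, another column used here only for CPM per kb. The submitters' processing notes name hg19 and the methods GRCh38. Of 57392 genes compared, 57370 overlapped their GRCh38 position in GENCODE 44, so GRCh38 was taken. Annotation release and strand setting are not given in the sources used here, so reads of genes that overlap on opposite strands cannot be told apart.

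Groups came from the sample titles, and 0 sample columns were left unmapped. In R 4.3.3 with edgeR 4.0.16, genes passing filterByExpr were scaled by TMM, and 1 quasi-likelihood model (earlier mode) with a mean per group was fitted to all libraries. Each SE was derived from the log2 fold-change and its F statistic. Per library, at least 21460981 counts were available, and 3 counts were taken as the floor. The replicate number, which the series record gives as the experimental batch, was added as a replicate block within each protocol. Libraries of the same number deviated together (r = 0.201 to 0.721 over 9 pairs at 24 h and 0.121 to 0.181 over 3 pairs in the repeated protocol). Pairs of different number had r = -0.1268 to -0.0341 over 6 pairs in the repeated protocol, below that range. At 24 h they had -0.6825 to 0.4527 over 18 pairs, which overlaps it. Libraries of replicate 2 had r = 0.5423 to 0.7211 with each other there, and -0.6825 to -0.1846 with those of other numbers. Replicates 1 and 3 also deviated together (0.0998 to 0.4527), so r does not decide how replicates 1 and 3 pair. The numbers were taken as pairing the libraries because the series record gives them as the batch. Alternatives covered scaling, filters, the libraries fitted, the block, the likelihood ratio test, DESeq2 1.42.0, and libraries left out. Figures were drawn with Python 3.11.15.

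The 10 genes and all lists were chosen with earlier results of these data known. Named were the 10 genes, YAP1 and WWTR1, up to 4 called genes per list and comparison with the largest changes, and the 3 genes nearest to each of the 10. CD14, PTPRC, KRT7, KRT8, KRT18, KRT19, EPCAM, CDH1 and the per-library ranges of markers are given as a check of the cell type.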

Additional observations from a re-analysis of the deposited data

How the results depend on the processing

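Each called gene of the 10 kept its direction in its comparison under every alternative run. After 30 µg/cm2 for 24 h, 3 of the 10 genes were called, against 5 without a filter on low counts, 5 without 24-h experiment 2, 4 with the replicate block, 1 in a fit of the compared libraries alone, and 2 to 4 with 1 library left out. For 1 µg/cm2 at 24 h the count was 0, against 2 without a filter, 1 with the replicate block, 1 with the likelihood ratio test, 1 with DESeq2, 3 without experiment 2, and 0 to 1 with 1 library left out. Between doses it was 3, against 4 without a filter, with the replicate block or without experiment 2, 1 in a fit of the compared libraries alone, and 2 to 3 with 1 library left out. After daily exposure it was 1, against 0 with upper-quartile scaling and 0 in every fit with 1 library of the protocol left out, where over all genes 0 to 11 were called. For the difference of responses it was 0, against 1 without a filter, 1 with the replicate block, 5 without experiment 2, and 0 to 2 with 1 library left out. Between controls it was 6, and 5 to 6 with 1 library left out. The cause was not tested.

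Where a group is left with 2 libraries, the spread is shared with the other groups. The replicate block changed 4 calls among the 10 genes, each by adding it (CCN1 at 30 µg/cm2, ANKRD1 at 1 µg/cm2, CCN2 between doses and ANKRD1 in the difference of responses), and no other call. Over all genes it raised the count from 1420 to 2681 at 30 µg/cm2, from 11 to 74 at 1 µg/cm2, from 1379 to 2737 between doses, from 40 to 773 after daily exposure and from 0 to 181 for the difference of responses. No block can join Control_7d with Control_24h. Without 24-h experiment 2 the counts over all genes were 3430, 378, 3113, 1083 and 1766 in the same order. A fit of the compared libraries alone called 360 genes at 30 µg/cm2, 149 between doses and 1029 after daily exposure. At 30 µg/cm2 it ended 9 of 12 calls of other listed genes (adjusted p = 0.0626 to 0.23) and between doses 8 of 10 (adjusted p = 0.0575 to 0.263). Between controls it ended 0 of 18 such calls, whereas 5 of the 18 ended in some fit with 1 library left out. Leaving out experiment 2 ended 1 of the 18. DESeq2 called 39 genes at 1 µg/cm2 for 24 h and 251 after daily exposure, and the likelihood ratio test 34 and 194. ANKRD1, at 51 to 701 counts per library, was the least deeply counted of the 10 genes.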
